A study of Mus musculus with 6 samples.

Results

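The 10 genes described here, Vwf, Gp1bb, Gp9, Gp5, Itga2b, Gp6, Pf4, Ppbp, Nfe2 and Gfi1b, encode platelet proteins and regulators of the megakaryocyte lineage, and they were measured in hematopoietic stem and progenitor cells. They were taken by name from the array annotation, which gave 12 probes for the 10 genes, of 55681 probes and 34821 gene names in all. RNA came from freshly sorted LSK cells, the mouse hematopoietic fraction that lacks lineage markers, carries Sca-1 and c-Kit and holds the stem cells and multipotent progenitors. There were 3 samples from NIKaly/aly mice, whose titles read KO and carry the numbers 2, 4 and 6, and 3 from wild-type mice, numbered 1, 3 and 5, each on an array of its own. NIK, the kinase encoded by Map3k14, starts alternative NF-kB signalling. The aly allele is a spontaneous point mutation of it, carried in the germline and so by every cell of the mouse and not by blood cells alone. Strain background, age and sex are not given in the sources used here, and whether each sample is a separate animal is not stated, and p-values therefore measure only the spread between these samples.

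Platelets are shed by megakaryocytes, and part of the hematopoietic stem cell pool already carries megakaryocyte transcripts, a state called platelet priming. Vwf marks stem cells biased toward platelet output. The proteins act at successive steps: von Willebrand factor is caught by the GPIb-IX-V receptor, GPVI binds collagen, integrin alpha IIb beta 3 ties platelets together through fibrinogen, and the alpha granules release the chemokines encoded by Pf4 and Ppbp. NF-E2 and GFI1B are transcription factors needed for the formation of platelets.

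Of the 10 genes, Vwf was the one whose genotypes did not overlap. It read lower in NIKaly/aly cells, at a mean of 1.66 ± 0.25 against 2.30 ± 0.09 in wild-type cells (SD, n = 3 each), in log2 units relative to the 75th percentile of its array, the scale of every level below. The groups of the other 9 genes overlapped. Genotypes were compared with limma across 15684 genes, those whose signal exceeded background clearly on 3 or more of the 6 arrays, with Benjamini-Hochberg adjustment and a threshold of 0.05. Of the 10 genes 9 were tested, and 0 passed. The background was 0.0%, since 0 of the 15684 genes passed. At an unadjusted p under 0.05 there was 1 of 9 (Vwf, on the lower side), where the background was 1.33%, or 208 genes, with 0.708% on the lower side. Other settings called between 0 and 1 of the 9, the 1 being Vwf in 1 fit described below. By direction, 4 read higher and 5 lower in NIKaly/aly cells, where 51.5% of all tested genes read lower. The median difference over the 9 was -0.05, where that over all tested genes was -0.01.

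**Figure D1:**
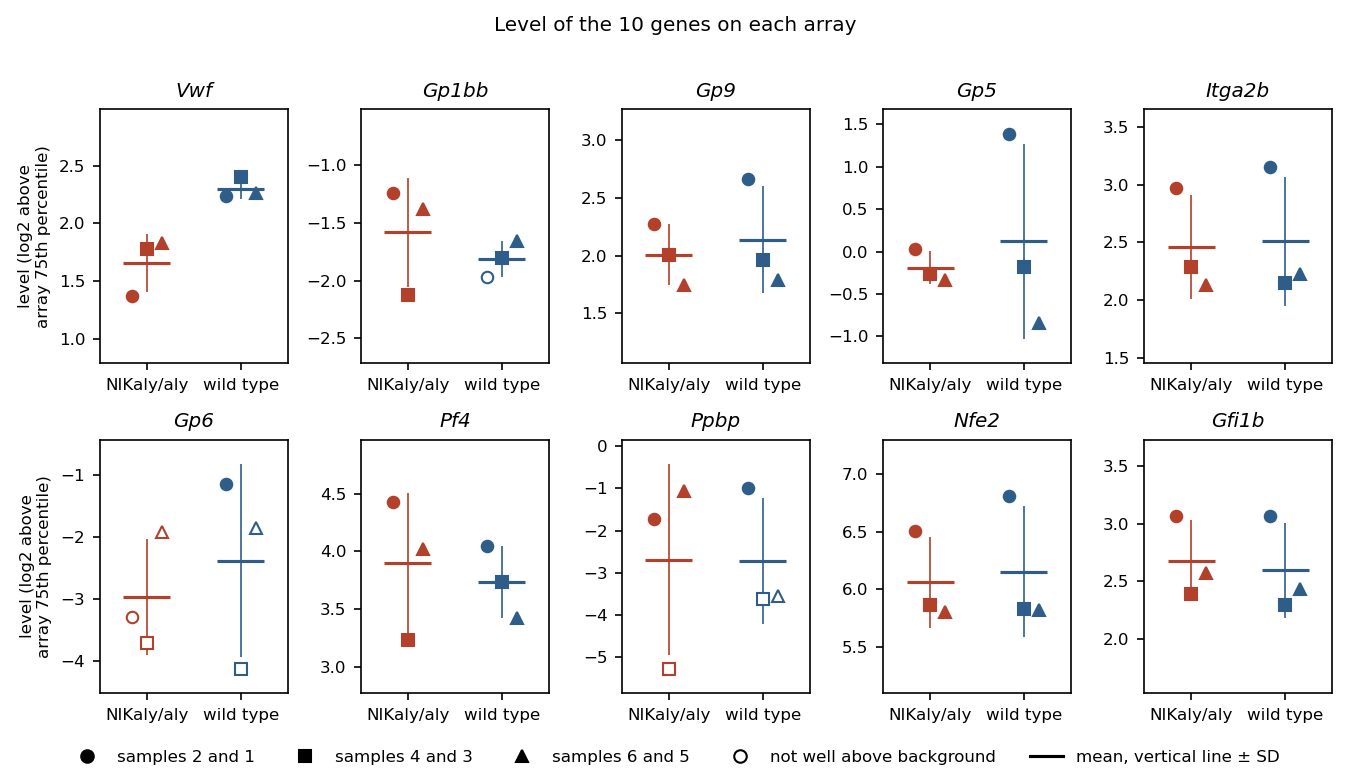
Level of each of the 10 genes on each of the 6 arrays (log2 units relative to the 75th percentile of its array; each panel has its own axis), NIKaly/aly left and wild type right, with horizontal lines at the means and vertical lines of 1 SD to each side. The 3 NIKaly/aly points of Vwf all lie below the 3 wild-type points, while the points of the other 9 genes overlap, and open symbols mark signals not well above background.

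The samples themselves bear on how these values are read. Between 33.7% and 43.8% of the spots were well above background on NIKaly/aly arrays, and between 33.1% and 45.6% on the wild-type arrays. In the file headers, NIKaly/aly 6 and wild type 1 carry a quality mark to evaluate them. Samples 2 and 1 stood apart together. They carried the highest erythroblast marker sums, and samples with consecutive numbers deviated together from their genotype means, with correlations over all tested genes of 0.74 for samples 2 and 1, 0.69 for 4 and 3 and 0.60 for 6 and 5. The sorted population was checked by its own markers. All 9 LSK genes on the list were well above background on at least 1 array, and of the 8 tested 6 read higher and 2 lower in NIKaly/aly cells, with 0 passing. With consecutive samples as a block 4 of the 8 had an unadjusted p under 0.05 (limma), where the background was 7.35%, and 0 passed. In all 3 pairs of consecutive samples 2 of the 8 read lower, Ly6a among them, and 2 higher. The background was 16.2% lower and 13.8% higher. The most strongly measured were Cd34, at 7.76, 7.43 and 7.31 in NIKaly/aly cells and at 7.53, 6.93 and 7.11 in wild-type cells, and Flt3, at 5.39, 5.46 and 5.62 in NIKaly/aly cells and at 4.93, 5.97 and 5.19 in wild-type cells. Ly6a, which encodes Sca-1 and so bears on the sort gate, read 2.94, 2.44 and 1.503 in NIKaly/aly cells and 3.67, 2.79 and 2.45 in wild-type cells, a difference of -0.68 with an SE of 0.46. Procr, a surface marker of stem cells, read above the highest wild-type value of 2.17 in every NIKaly/aly sample. Its difference was 0.78 with an SE of 0.28 and an unadjusted p of 0.023 (limma, adjusted p = 0.99998). Non-overlap on the higher side was found in 1 of the 8 tested LSK genes, where the background was 2.68%. The summed linear signal of the LSK list was 320.5 to 359 in NIKaly/aly samples and 261 to 320.3 in wild-type samples. These ranges did not overlap but nearly touched. Cd34, the brightest gene, weighs most in this sum. The part of a shift in the sorted cells in the levels of the 10 genes was not tested. Map3k14 itself read 1.60, 2.53 and 2.14 in NIKaly/aly cells and 0.73, 2.54 and 2.06 in wild-type cells. Its transcript does not check the genotype labels, because the allele is a point mutation. In a sorted population, fewer cells of a type and less RNA per cell cannot be told apart.

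Each gene was read by 1 probe of 60 bases, other than Gp1bb, which had 3. Of the 12 probes, 7 were well above background on all 6 arrays and 2 on none. The sequences of 2 probes are shown because they bear on what was counted. That of Itga2b, at chr11:102319453-102319661 on the minus strand of mm9, covers more of the genome than its own length. It therefore crosses an intron and reads spliced RNA. That of Gp1bb, at chr16:18621107-18621166 on the minus strand, was the brightest of 3 and has a GC content of 80%.
Itga2b: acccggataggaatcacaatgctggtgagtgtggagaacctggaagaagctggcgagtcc
Gp1bb: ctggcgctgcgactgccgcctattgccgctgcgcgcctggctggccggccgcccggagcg

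Vwf encodes von Willebrand factor, the large adhesive glycoprotein stored in platelet alpha granules and in endothelial cells. Its probe lies at chr6:125636551-125636610 on the plus strand of mm9. Vwf read 1.37, 1.78 and 1.83 in NIKaly/aly samples 2, 4 and 6, against 2.24, 2.40 and 2.26 in wild-type samples 1, 3 and 5. The highest NIKaly/aly sample thus lay below the lowest wild-type sample, and sample 2 was the lowest of all. Non-overlap in this direction was found in 1 of the 9 tested genes, where the background was 1.89% (4.57% in either direction). The difference was -0.64 with an SE of 0.26 and a 95% interval of -1.23 to -0.05, so that the mean signal in NIKaly/aly cells was 0.641 times that in wild-type cells. The unadjusted p was 0.036 and the adjusted p 0.99998 (limma), and 0.982% of the tested genes had a smaller p.

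The difference in Vwf kept its sign in all 21 alternatives tried, at -0.75 to -0.49. Many of these could not have turned it. Settings such as slide row or consecutive samples as a block leave the difference at -0.64 by construction. Leaving out samples cannot turn the sign where the genotypes do not overlap. Vwf read lower in each pair of consecutive samples, with differences of -0.87, -0.63 and -0.43. Reading lower in all 3 such pairs was found in 1 of the 9 genes, where the background was 16.2%. For Vwf this count follows from the non-overlap of the genotypes and is not a further result. Without samples 1 and 2 the difference was -0.53, and within slide row 1, which holds samples 1 to 4, it was -0.75. Vwf passed in 1 alternative, with array column as a random block (adjusted p = 0.0104, limma; range over alternatives 0.0104 to 1). That fit called 1378 genes, or 8.79%, and its correlation within columns was estimated at -0.88. Each column holds samples of 1 genotype, so a negative correlation within columns narrows the SE of the genotype difference. No conclusion is drawn from this pass. With consecutive samples as a block the SE was 0.15, the 95% interval -1.001 to -0.28, the unadjusted p 0.0037 and the adjusted p 0.282 (limma). That block called 0 of the 9 genes, where the background was 0.0128%, and left 1 of 9, Vwf, at an unadjusted p under 0.05, where the background was 7.35%. Its pairing comes from the data, in which consecutive samples deviated together, and not from the labels. The narrower interval and smaller p are therefore a description, and no conclusion is drawn from them.

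Endothelial cells also make Vwf, so their markers are given beside it. Of the 10 on the list 9 were tested, 2 reading higher and 7 lower in NIKaly/aly cells, and 0 passed. Their differences ranged from -0.71 to 0.45. In all 3 pairs of consecutive samples 3 of the 9 read lower and 0 higher, where the background was 16.2% lower and 13.8% higher. Cdh5, the vascular cadherin that defines endothelium, did not exceed background on any of the arrays. The summed linear signal of the list, relative to the 75th percentile, ranged from 118 to 212 in NIKaly/aly samples and from 120 to 265 in wild-type samples, so the genotypes overlapped. Egfl7, the brightest marker of the list, weighs most in these sums. The most strongly measured of these markers were Egfl7, at 7.56, 6.62 and 6.47 in NIKaly/aly cells and 7.83, 7.02 and 6.51 in wild-type cells, and Kdr, at 2.89, 2.67 and 4.21 in NIKaly/aly cells and 4.17, 2.70 and 3.81 in wild-type cells. The part of endothelial RNA in the Vwf difference was not tested beyond these values.

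The receptor for von Willebrand factor did not share that separation. Gp1bb, Gp9 and Gp5 encode the beta chain of GPIb, GPIX and GPV. Gp9, whose probe lies at chr6:87729650-87729709 on the plus strand, read 2.28, 2.01 and 1.75 in NIKaly/aly cells and 2.66, 1.97 and 1.79 in wild-type cells. The groups overlapped, and sample 1 was the highest of the 6. The difference was -0.13 with an SE of 0.32 and a 95% interval of -0.86 to 0.60.

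Gp1bb was dim, and its genotypes overlapped. The probe shown above read -1.24, -2.12 and -1.38 in NIKaly/aly cells and -1.97, -1.81 and -1.66 in wild-type cells, the value in sample 1 being not well above background. The lowest and the highest value both came from NIKaly/aly samples. The difference was 0.23 with an SE of 0.43 and a 95% interval of -0.76 to 1.22. The other probes of Gp1bb, at chr16:18621535-18621594 and chr16:18621717-18621776, were well above background on 0 of 6 arrays, and no fold change is given for them.

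Gp5 varied most among the wild-type samples. Its probe, at chr16:30308347-30308406 on the minus strand, read 0.03, -0.27 and -0.34 in NIKaly/aly cells and 1.39, -0.18 and -0.84 in wild-type cells. Both the highest and the lowest value were thus wild type, with an SD of 1.14 in wild-type cells against 0.20 in NIKaly/aly cells. The difference of -0.31 (SE 0.54, 95% interval -1.56 to 0.94) turned to 0.32 without wild type 1 and to 0.21 without samples 1 and 2. The GPIb alpha chain that carries the von Willebrand factor site, Gp1ba, exceeded background clearly on 2 of 3 arrays of each genotype. It read -0.90, -1.48 and -2.10 in NIKaly/aly cells and -1.21, -2.12 and -2.96 in wild-type cells, a difference of 0.60 with an SE of 0.58, and 0.17 without wild type 5. Gp1ba read higher in NIKaly/aly cells in all 3 pairs of consecutive samples, by 0.30, 0.64 and 0.86, where the background was 13.8%.

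Itga2b encodes integrin alpha IIb, known as CD41, the subunit that pairs with the product of Itgb3 to bind fibrinogen. Itga2b read 2.98, 2.28 and 2.13 in NIKaly/aly cells and 3.15, 2.15 and 2.23 in wild-type cells. Samples 2 and 1 were the highest of their genotypes, and samples 3 to 6 spanned 0.15 log2 units. The difference was -0.05 with an SE of 0.37 and a 95% interval of -0.91 to 0.81. Itgb3 read 1.58, 1.60 and 1.64 in NIKaly/aly cells and 1.57, 1.66 and 2.34 in wild-type cells. Wild type 5 stood above the other samples of Itgb3, and the difference was -0.25 with an SE of 0.29, and -0.0061 without it.

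Gp6 encodes GPVI, the platelet collagen receptor, and was near the limit of detection. Its probe, at chr7:4320351-4320410 on the minus strand, exceeded background clearly on 0 of 3 NIKaly/aly arrays and 1 of 3 wild-type arrays. The values were -3.29, -3.71 and -1.91 in NIKaly/aly cells and -1.15, -4.13 and -1.86 in wild-type cells, with wild type 1 as the array well above background. Gp6 was not tested. No fold change or bound is given, because 1 array alone measured it. Fcer1g, which encodes the signalling chain that GPVI needs and is also made by myeloid cells, read 6.09, 4.60 and 5.88 in NIKaly/aly cells and 6.80, 4.57 and 5.83 in wild-type cells, a difference of -0.21 with an SE of 0.62.

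Pf4 and Ppbp, which encode platelet factor 4 and platelet basic protein, are neighbours on chromosome 5. Their probes lie at chr5:91202275-91202334 and chr5:91198970-91199029 on the plus strand. Pf4 read 4.43, 3.23 and 4.02 in NIKaly/aly cells and 4.05, 3.74 and 3.43 in wild-type cells. The NIKaly/aly samples held both the highest and the lowest value. The difference was 0.16 with an SE of 0.37 and a 95% interval of -0.69 to 1.01.

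Ppbp differed from its neighbour in how much it varied. It read -1.72, -5.28 and -1.07 in NIKaly/aly cells and -0.99, -3.63 and -3.55 in wild-type cells. Samples 2, 6 and 1 were well above background and samples 4, 3 and 5 were not. From its lowest to its highest sample the signal of Ppbp spanned 4.29 log2 units and that of Pf4 1.20, but the low end for Ppbp is a signal not above background and so not a measured level. The difference was 0.03 with an SE of 1.22 and a 95% interval of -2.77 to 2.84, which holds large changes in either direction.

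Nfe2 encodes the p45 subunit of NF-E2, the factor that drives late megakaryocyte genes. Its probe, at chr15:103078838-103078897 on the minus strand, read 6.51, 5.87 and 5.80 in NIKaly/aly cells and 6.81, 5.83 and 5.82 in wild-type cells. Samples 2 and 1 were the highest, while samples 3 to 6 spanned only 0.06 log2 units. The difference was -0.09 with an SE of 0.39 and a 95% interval of -1.001 to 0.81.

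Gfi1b encodes a transcriptional repressor of the erythroid and megakaryocyte lineages. Its probe lies at chr2:28464982-28465041 on the minus strand, and it read 3.07, 2.39 and 2.57 in NIKaly/aly cells and 3.06, 2.29 and 2.43 in wild-type cells. Samples 2 and 1 again held the highest values, close to each other. Gfi1b read higher in NIKaly/aly cells in all 3 pairs of consecutive samples, by 0.01, 0.10 and 0.14, where the background for 3 such pairs was 13.8%. The difference was 0.08 with an SE of 0.32 and a 95% interval of -0.65 to 0.82. Gata1, the master regulator of the erythroid and megakaryocyte lineages, read 3.49, 2.03 and 1.71 in NIKaly/aly cells and 3.59, 2.41 and 2.10 in wild-type cells, a difference of -0.29 with an SE of 0.55. Its differences in the 3 pairs of consecutive samples were -0.10, -0.38 and -0.39, where the background for reading lower in all 3 was 16.2%.

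**Figure D2:**
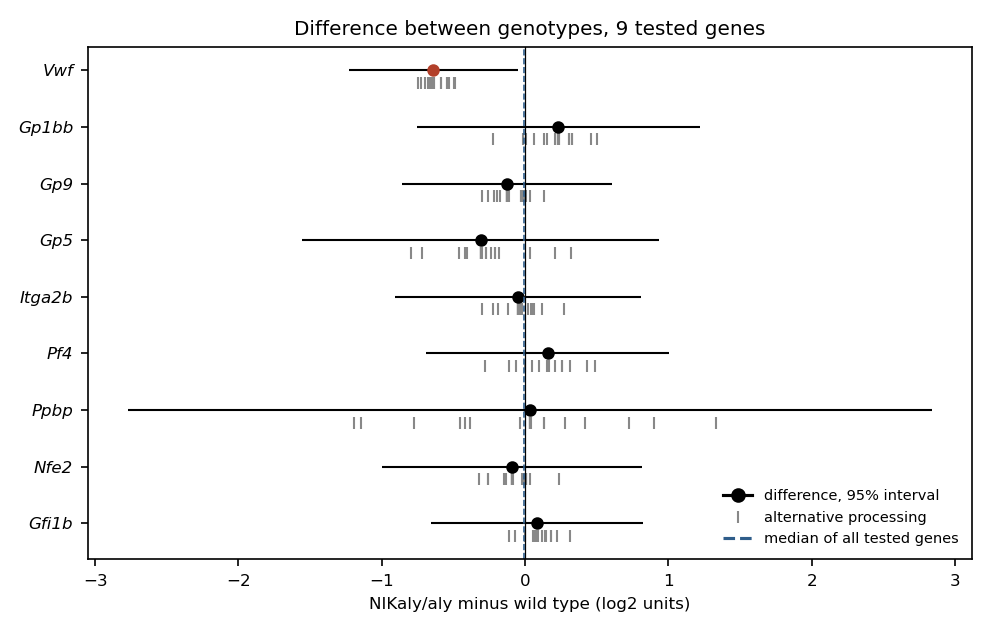
Difference between NIKaly/aly and wild-type means for the 9 tested genes (log2 units; positive is higher in NIKaly/aly), with points for the fitted differences, lines for the 95% intervals and ticks for the values under alternative processing. The interval of Vwf ends at -0.05 and all its ticks lie below 0, whereas the intervals of the other 8 genes include 0.

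The genes varied across the arrays in a shared way that did not follow genotype. In 6 of the 9 tested genes (Gp9, Gp5, Itga2b, Pf4, Nfe2 and Gfi1b) samples 2 and 1 held the highest values of the 6 arrays, where the background was 39.8%. In the 5 wider megakaryocyte and platelet lists described below, that held for 19 of the 57 tested genes, or 33.3%, which is under the background. The mean of the 9 genes, each centred on its own mean, was 0.34, -0.53 and 0.07 in NIKaly/aly samples 2, 4 and 6 and 0.64, -0.21 and -0.31 in wild-type samples 1, 3 and 5. Vwf did not follow it: sample 2 was its lowest. The level of Ppbp weighs most in this mean because its range was the widest.

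Markers of some other cells were also highest in samples 2 and 1. That held for 6 of the 7 tested erythroblast markers, 7 of the 8 mature neutrophil markers, 6 of the 7 B cell markers and 4 of the 6 mast cell and basophil markers, beside the background of 39.8%. It held for 3 of the 6 T cell markers, 2 of the 9 endothelial markers and 0 of the 6 macrophage and monocyte markers. The erythroblast sum was 279, 48.2 and 88.1 in NIKaly/aly samples 2, 4 and 6 and 455, 47.7 and 54.7 in wild-type samples 1, 3 and 5. Car2, a carbonic anhydrase, read 6.37, 5.32 and 6.10 in NIKaly/aly cells and 5.82, 5.24 and 5.28 in wild-type cells. Hbb-b1, an adult globin chain, read 6.51, 2.47 and 3.18 in NIKaly/aly cells and 7.61, 2.48 and 2.90 in wild-type cells, while Epb4.2, a red cell membrane gene, did not exceed background on any of the arrays. The neutrophil sum ranged from 1194 to 4024 in NIKaly/aly samples and from 1083 to 7052 in wild-type samples, with S100a9 at 10.84, 9.54 and 11.18 in NIKaly/aly cells and 11.84, 9.32 and 10.91 in wild-type cells, and S100a8 at 9.58, 7.70 and 9.03 in NIKaly/aly cells and 10.43, 7.46 and 8.89 in wild-type cells. Mast cell and basophil markers summed to between 14.4 and 69.7 in NIKaly/aly samples and between 18.6 and 84.1 in wild-type samples, and B cell markers to between 17.6 and 60.3 in NIKaly/aly samples and between 31.8 and 121 in wild-type samples. The part of these cells in the levels of the 6 genes was not tested. Without samples 1 and 2 the median difference of the 9 genes was 0.02. With consecutive samples as a block the 95% intervals of the 8 tested genes other than Vwf still included 0, at -0.37 to 0.28 for Itga2b, -0.38 to 0.19 for Nfe2 and -0.22 to 0.38 for Gfi1b.

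**Figure D3:**
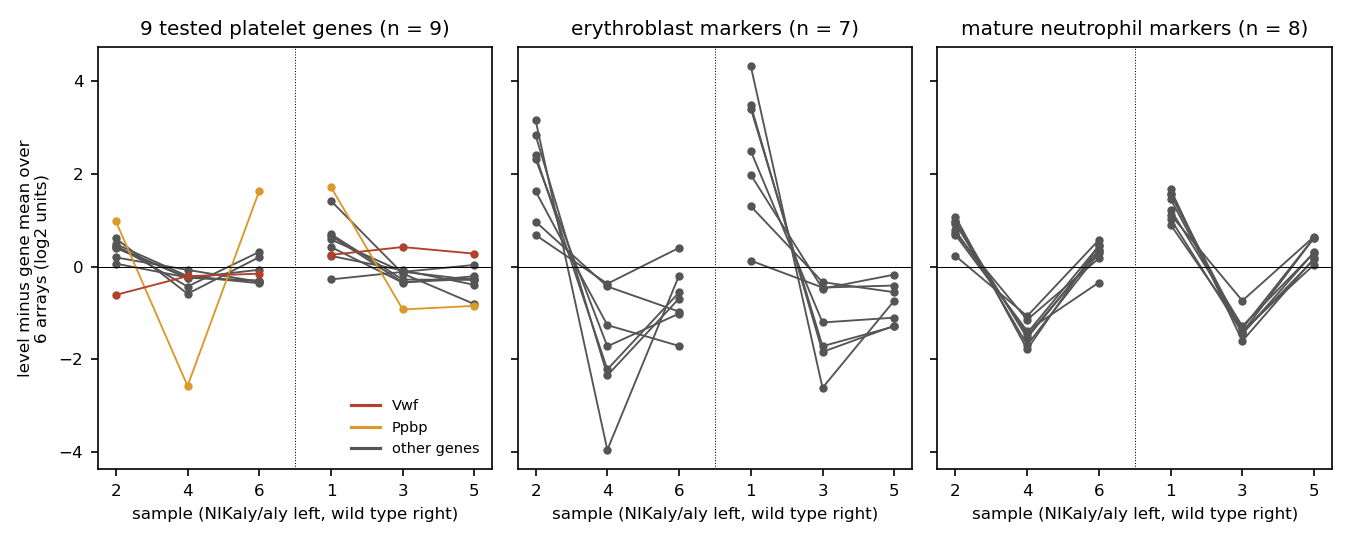
Level of each gene on each array minus its mean over the 6 arrays (log2 units), for the 9 tested platelet genes, 7 erythroblast markers and 8 mature neutrophil markers, with NIKaly/aly samples left of the dotted line and wild-type samples right of it. Most of these 9 platelet genes and most of these markers are highest in samples 2 and 1, and Vwf is lowest in sample 2 and above its mean in all 3 wild-type samples.

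The genes outside the 10 whose profile over the 6 arrays was most like the mean of the 9, by Pearson's correlation, were Tmsb10 (0.993), 1600014C10Rik (0.992), Pfn1 (0.990) and Dhx29 (0.989), followed by an entry on chromosome 17 with no gene name (0.989). Tmsb10 and Pfn1 encode actin-binding proteins. Over samples 3 to 6 alone these correlations were 0.970, 0.966, 0.967, 0.995 and 0.979. The points are 6 arrays that share the differences between samples just described, so the correlations are a description without a test. The mean also leans most on Ppbp, whose signals in samples 4, 3 and 5 were not well above background.

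Promoters are printed for the 5 of the 6 genes highest in samples 2 and 1 for which RefSeq sequence was given, and for Ppbp, the neighbour of Pf4. Those of Vwf and Nfe2 were not used here. Each runs from 250 bases before to 50 bases after the RefSeq gene start in GRCm38.p6, 5′ to 3′ on the gene's strand. Capitals mark GATAA or GATAG preceded by A or T, the site of GATA factors, on either strand.
Gp9, chr6:87777820-87778119, plus strand: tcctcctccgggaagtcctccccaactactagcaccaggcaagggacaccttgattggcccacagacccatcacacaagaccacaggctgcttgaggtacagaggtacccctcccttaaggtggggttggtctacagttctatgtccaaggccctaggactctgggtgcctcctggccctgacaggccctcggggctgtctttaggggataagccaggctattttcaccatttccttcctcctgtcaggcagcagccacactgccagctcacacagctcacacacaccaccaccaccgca
Gp5, chr16:30310732-30311031, minus strand: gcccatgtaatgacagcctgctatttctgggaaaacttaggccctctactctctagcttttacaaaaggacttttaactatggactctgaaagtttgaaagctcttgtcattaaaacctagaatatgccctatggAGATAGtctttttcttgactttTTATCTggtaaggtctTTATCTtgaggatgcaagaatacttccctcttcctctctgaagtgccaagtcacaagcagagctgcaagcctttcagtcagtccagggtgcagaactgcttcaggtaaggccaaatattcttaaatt
Itga2b, chr11:102469834-102470133, minus strand: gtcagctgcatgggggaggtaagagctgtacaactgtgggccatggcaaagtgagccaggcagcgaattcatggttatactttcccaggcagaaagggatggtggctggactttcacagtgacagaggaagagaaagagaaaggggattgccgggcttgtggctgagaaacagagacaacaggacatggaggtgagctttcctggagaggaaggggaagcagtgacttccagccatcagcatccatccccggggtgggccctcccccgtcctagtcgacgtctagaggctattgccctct
Pf4, chr5:90772185-90772484, plus strand: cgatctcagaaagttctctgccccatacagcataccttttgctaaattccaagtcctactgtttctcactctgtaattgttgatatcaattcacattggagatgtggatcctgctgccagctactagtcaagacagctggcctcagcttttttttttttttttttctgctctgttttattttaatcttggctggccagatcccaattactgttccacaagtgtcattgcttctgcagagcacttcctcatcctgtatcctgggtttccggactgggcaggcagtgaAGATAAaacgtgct
Gfi1b, chr2:28621933-28622232, minus strand: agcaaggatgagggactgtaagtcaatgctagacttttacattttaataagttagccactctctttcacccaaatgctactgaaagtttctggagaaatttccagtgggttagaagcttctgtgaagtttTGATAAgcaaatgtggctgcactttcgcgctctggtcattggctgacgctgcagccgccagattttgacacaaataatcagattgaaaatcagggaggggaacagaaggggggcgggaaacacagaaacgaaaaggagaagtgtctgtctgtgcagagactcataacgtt
Ppbp, chr5:90768268-90768567, plus strand: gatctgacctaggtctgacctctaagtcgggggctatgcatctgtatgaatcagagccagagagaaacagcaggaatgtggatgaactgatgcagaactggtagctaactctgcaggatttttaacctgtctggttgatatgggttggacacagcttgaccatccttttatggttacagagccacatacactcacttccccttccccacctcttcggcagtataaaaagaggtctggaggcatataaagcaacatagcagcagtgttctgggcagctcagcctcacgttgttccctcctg

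GATA letters were in 5 of the 8 promoters given for the 10 genes (those of Gp1bb, Gp5, Gp6, Pf4 and Gfi1b), and in 29.8% of all 32851 promoters of the same length. Gp5 held 3 such matches, at positions -115, -93 and -77 from the start, where negative positions lie before it. The match in Pf4 lies 36 bases after its start, and the promoter of Ppbp held none. TGCTGA, part of the NF-E2 element, was in 1 of 8, that of Itga2b, and in 19.5% of all promoters. TGTGGT, the RUNX core, was in 1 of 8, that of Gp9, and in 16.8% of all. CAGGAAG or CCGGAAG, bound by ETS factors, was in 0 of 8 and in 20.9% of all. GGGNNNNNCC, the NF-kB pattern, was in 2 of 8, those of Itga2b and Gp9, and in 50.8% of all. Both strands were searched, and the NF-kB matches near the Itga2b start overlap each other. These are matches of letters in a short window and describe the sequences only.

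The wider megakaryocyte and platelet programme held 65 further genes in 5 lists, of which 57 were tested. In it 25 genes read higher and 32 lower in NIKaly/aly cells, 0 passed, and 1 (Mmrn1) had an unadjusted p under 0.05 (limma). With consecutive samples as a block that count was 9 of 57, where the background was 7.35%, and 0 passed. The median difference was -0.02. Groups did not overlap in 2 genes that read lower, Nbeal2 and Syk, and in 2 that read higher, Mmrn1 and Rab27b, where the background was 1.89% lower and 2.68% higher. AU023871, F2rl2, Ly6g6f, P2ry12, Tubb1 and Alox12 did not exceed background on any of the arrays. Tubb1 encodes the tubulin of mature platelets and P2ry12 a platelet ADP receptor.

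Among 8 granule protein genes 3 read higher and 5 lower. Mmrn1 encodes multimerin 1, a protein of platelet alpha granules and, like von Willebrand factor, of endothelium. It read 2.06, 2.02 and 2.46 in NIKaly/aly cells against 1.60, 1.47 and 1.48 in wild-type cells, the opposite side to Vwf. The difference was 0.67 with an SE of 0.25 and an unadjusted p of 0.030 (limma, adjusted p = 0.99998). F13a1, the A chain of coagulation factor XIII, which monocytes and macrophages also make, read 2.85, 1.55 and 2.02 in NIKaly/aly cells against 3.70, 2.44 and 3.11 in wild-type cells. Its groups overlapped across samples, and it read lower in each pair of consecutive samples, with differences of -0.86, -0.89 and -1.09. Of the 6 tested macrophage and monocyte markers 6 read lower in NIKaly/aly cells and 0 passed, where 51.5% of all tested genes read lower. Lower readings were also found in 7 of 7 tested B cell, 8 of 8 neutrophil, 6 of 7 erythroblast and 5 of 6 T cell markers. They were found in 4 of 6 mast cell and basophil, 7 of 9 endothelial and 2 of 8 LSK markers. Csf1r, a growth factor receptor of the macrophage lineage, read 3.82, 3.77 and 3.26 in NIKaly/aly cells against 5.29, 4.51 and 4.55 in wild-type cells, so its genotypes did not overlap. Its difference was -1.17 with an SE of 0.33 and an unadjusted p of 0.0075 (limma, adjusted p = 0.99998, and 0.095 with consecutive samples as a block, as for F13a1). Non-overlap on the lower side was found in 1 of the 6 macrophage and monocyte markers, where the background was 1.89%. Itgam, an integrin chain of myeloid cells, read 3.52, 3.81 and 4.89 in NIKaly/aly cells and 4.18, 3.82 and 4.74 in wild-type cells. The sum of the macrophage and monocyte list was 33.4 to 48.8 in NIKaly/aly samples and 43.6 to 67.8 in wild-type samples. The part of macrophages and monocytes in the F13a1 values was not tested.

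Of the 14 tested receptor genes 6 read higher and 8 lower. Cd9, a tetraspanin, differed by 0.50 with an SE of 0.40 and Clec1b, the podoplanin receptor, by -0.95 with an SE of 0.85, Clec1b being detected on 1 of 3 NIKaly/aly arrays and 2 of 3 wild-type arrays. Without NIKaly/aly 4 the difference of Clec1b was -0.064, and with normexp background correction -0.22. Of the 13 tested transcription factors 5 read higher and 8 lower, within -0.29 to 0.30. Ldb1, a cofactor of GATA and TAL1 complexes, differed by -0.26 with an SE of 0.26 and Meis1, a homeobox factor of stem cells and megakaryocytes, by 0.30 with an SE of 0.31.

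Among 14 tested genes of the platelet cytoskeleton and of secretion 8 read higher and 6 lower. Rab27b, a small GTPase of granule secretion, differed by 0.60 with an SE of 0.33, but its dimmer probe differed by 0.11 with an SE of 0.41. Nbeal2, needed for alpha granules, differed by -0.38 with an SE of 0.27, and its dimmer probe, whose genotypes overlapped, by -0.26. Of 8 tested signalling genes 3 read higher and 5 lower. The kinase gene Syk differed by -0.29 with an SE of 0.26, and its dimmer probe, whose genotypes overlapped, by -0.59 with an SE of 0.46. Lat, an adaptor downstream of GPVI, differed by 0.19 with an SE of 0.31.

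**Figure D4:**
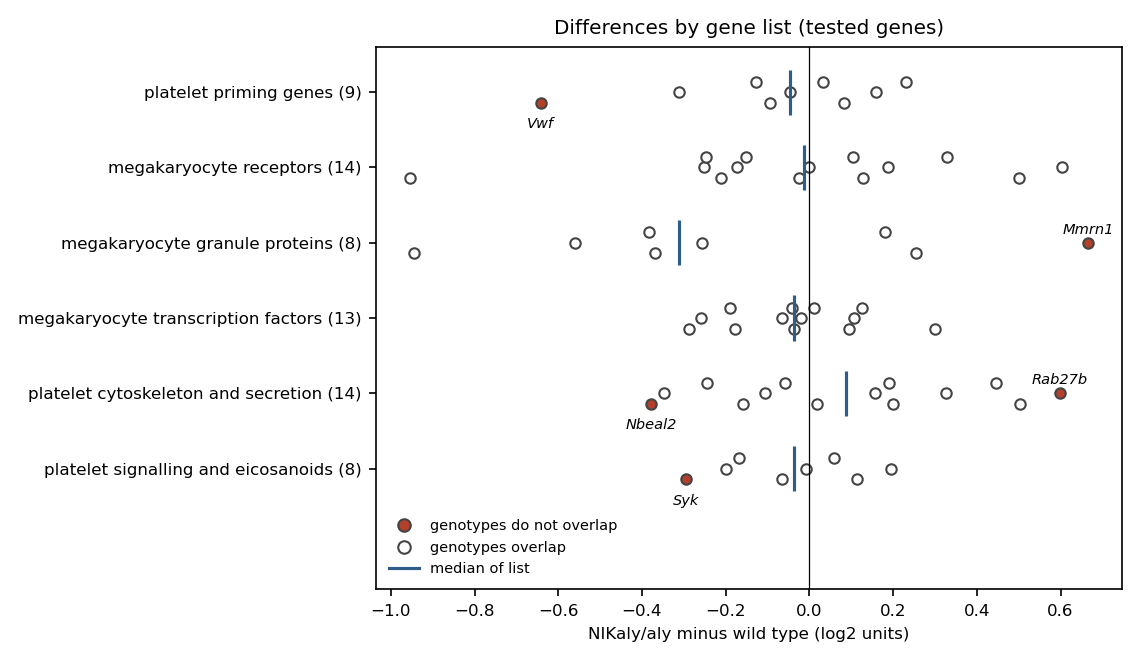
Difference between NIKaly/aly and wild-type means (log2 units; positive is higher in NIKaly/aly) for the tested genes of 6 lists, with the number tested in brackets, one point per gene and a line at each list's median. Vwf, Mmrn1, Rab27b, Nbeal2 and Syk are the filled points, whose genotypes did not overlap.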

How the data were processed

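RNA of 6 LSK samples was amplified, labelled with Cy3 and hybridised singly to Agilent arrays, per the labels' protocols. Per the file headers, the authors extracted spot intensity with version 10.7.3.1 of Agilent Feature Extraction, and probe positions are on mm9. The deposited processed signal is intensity after background subtraction, and flags mark outliers, saturated spots and spots clearly above background. A deposited table of the whole series holds a linear signal, which matched the processed signal divided by each array's median. It served as an alternative.

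From the deposited processed signal, log2 values were taken and the 75th percentile of the 59305 non-control spots was subtracted per array. Outlier spots were left out, and no spot was saturated. Spots of a probe were averaged, and the brightest probe per gene was kept. Genes clearly above background on 3 or more arrays were tested in limma 3.58.1 (R 4.3.3, lmFit, eBayes with an intensity trend, two-sided, 4 residual degrees of freedom), with genotype as the only term. The number of arrays limits the precision. All arrays lay on 1 slide and in 1 scan. Slide row, array column (which lies within genotype) and pairs of consecutive sample numbers were fitted as alternative blocks. The pairing comes from the data and not from the labels.

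Members and gene lists were chosen with earlier results of these data known. Named outside the 10 are the 2 genes of each wider list with the smallest unadjusted p, partners or regulators (Itgb3, Gp1ba, Fcer1g and Gata1), the 5 genes most like the members' mean, Map3k14, and the 2 brightest markers of a cell type list, which for B cells, T cells and mast cells are given only within counts or sums. Genes of a marker or wider list named for non-overlap, the sort gate or lack of signal were added after their values were seen. Certain results are not reported here. Promoters come from RefSeq, GRCm38.p6. The fitting was tested on simulated data. Figures were drawn with Python 3.11.15 and matplotlib 3.10.9.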

Additional observations from a re-analysis of the deposited data

How the results depend on the processing

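With 3 samples a genotype, the median residual SD over all tested genes was 0.50 log2 units, and 0.22 with consecutive samples as a block. In both fits the 95% intervals of the 8 tested genes other than Vwf include changes in either direction, and Gp6 and Ppbp lie at the edge of detection. Of 187 combinations of a tested gene and an alternative, 151 kept the direction and 36 turned it. Settings that leave a difference unchanged by construction, such as slide row or consecutive samples as a block, count among those that kept it. Vwf kept its direction in 21 of 21, but its genotypes did not overlap, so leaving out samples could not turn it. The cause was not tested for any of the changes below.

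The count of all genes called, 0 as reported, was 1 with normexp background correction, 10 with median scaling and with the authors' table, 2 without a filter on dim probes, 5 with array weights, 1378 with array column as a random block, 2 with consecutive samples as a block, and 0 to 1 when 1 sample was left out (1 without wild type 3). With array column as a random block, 1 of 9 tested probes and 1 of 9 tested genes (Vwf) of the 10 genes were called. So were 7 of 57 tested genes of the wider lists, against 0 of each as reported. The background in that fit was 8.79% of all tested genes. The labels give the genotypes no shared replicate number, so the block on consecutive samples is a pairing taken from the data. It changed no call among the 10 genes.

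These differences turned sign. Itga2b was 0.053 with normexp, 0.051 with median scaling and with the authors' table, 0.065 with array weights and 0.018 without samples 1 and 2. Pf4 was -0.28 with array weights and -0.062 within slide row 1. Gp1bb was -0.22 with array weights and -0.017 without samples 1 and 2. Gp9 was 0.037 and 0.0023 under these settings, and Gp5 0.034 and 0.21. Ppbp was -0.035 with normexp, -1.14 with array weights and -1.19 within slide row 1. Nfe2 was 0.0047 with median scaling and the authors' table, 0.0052 with array weights and 0.0085 without samples 1 and 2. Lat was -0.036 within slide row 1, and Fcer1g 0.036 without samples 1 and 2.

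Leaving out each sample in turn gave -0.30 to 0.27 for Itga2b, -0.11 to 0.49 for Pf4, -0.30 to 0.13 for Gp9, -0.79 to 0.32 for Gp5, -0.78 to 1.33 for Ppbp, -0.32 to 0.23 for Nfe2, -0.11 to 0.32 for Gfi1b, -0.83 to 0.16 for Gata1, -0.79 to 0.32 for Fcer1g and -0.21 to 0.69 for Map3k14. Without a change of sign it gave 0.062 to 0.50 for Gp1bb, 0.17 to 1.05 for Gp1ba, -0.39 to -0.0061 for Itgb3, 0.18 to 0.79 for Cd9, -1.47 to -0.064 for Clec1b, 0.11 to 0.42 for Meis1 and 0.053 to 0.42 for Lat. Median scaling moved the median of all genes to 0.09, and that of the 9 genes to 0.05. An eBayes fit without the intensity trend, added after the data were seen, called 0 genes.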
